A study of Mus musculus with 28 samples.

Results

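The chromodomain helicase DNA-binding family has 9 members in the mouse, *Chd1* to *Chd9*, and their transcripts were followed in the amygdala of female mice that drank alcohol. The members were taken by gene symbol, and the family itself was chosen with earlier results of these data known. All 9 were found among the 49477 genes that both count tables share, and all 9 were among the 16266 genes that averaged 10 counts or more per mouse and were tested. The family is of interest here because the study named *Chd1* a hub gene of a network of genes it had picked from these same mice, so the values of *Chd1* below are not independent evidence for that choice.

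CHD proteins are ATP-dependent motors that slide, space or evict nucleosomes, and they carry paired chromodomains that help them to dock on histone tails. *Chd1* and *Chd2* form the group linked to active transcription and its elongation. *Chd3*, *Chd4* and *Chd5* are the alternative ATPases of the NuRD complex, which couples remodeling to histone deacetylation and to gene repression. *Chd6* to *Chd9* are large proteins of the last group, several of which are known from disorders of human neurodevelopment.

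The RNA came from bilateral amygdala micropunches, aimed at the basolateral and central nuclei, of 28 adult female C57BL/6J mice. The 10 Water mice drank only water, the 9 Acute mice had a single access to 20% alcohol after weeks of water alone, and the 9 Chronic mice had 20% alcohol on every other day for a month, always with a free choice of water. The mice came as 2 batches (cohorts), of 4 Water, 4 Acute and 3 Chronic mice in the first and 6, 5 and 6 in the second, and each library is 1 mouse. Total counts ran from 20004380 to 22569562 per mouse, each mouse gave between 161 and 18736 counts for each member, and none of the 55 pairs of libraries of the same group and batch differed by as little as counting noise would allow.

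Values per mouse are CPM, a gene's counts per 1000000 counts of the library after TMM normalization, adjusted for the batch. Levels of different genes are compared only as CPM per kilobase of the gene's merged exons. Groups were compared with edgeR's quasi-likelihood test with the batch as a covariate, and p-values were adjusted over all 16266 genes by the Benjamini-Hochberg method with a threshold of 0.05. In bulk tissue, fewer cells of a type and less RNA per cell cannot be told apart. All of 10 amygdala markers were detected in every mouse, among them *Slc17a7* at 833 to 1618 CPM and *Gad1* at 329 to 564 CPM. *Sst* was at 218 to 287 CPM, *Prkcd* at 22.98 to 50.4 CPM and *Crh* at 3.53 to 9.98 CPM. *Slc17a7* and *Gad1* also serve below as general neuron markers, so detection does not set the amygdala apart from other brain regions. *Ppp1r1b*, which is also abundant in the neighboring striatum, ranged from 147 to 489 CPM.

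With edgeR no *Chd* gene passed the threshold in any comparison, while DESeq2, run as an alternative, called *Chd1* lower in Chronic than in Water mice. In that comparison DESeq2 called 36 of all 16266 genes with batch as a covariate, and 88 of 16295 after ComBat-seq. The adjusted edgeR test called 0 of 9 members in Acute against Water, where it called 0% of all genes, 0 of 9 in Chronic against Water, where it called 0.0184% of all genes, and 0 of 9 in Chronic against Acute, where it again called 0%. At an unadjusted p under 0.05 there was 1 member lower in Acute than in Water, *Chd1*, beside 4.45% of all genes. There was 1 lower in Chronic than in Water, again *Chd1*, beside 5.65% of all genes, and 1 higher in Chronic than in Acute, *Chd7*, beside 1.95% of all genes. The Acute and Chronic comparisons share their 10 Water mice and are therefore not independent of each other.

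The members differed widely in level, and the NuRD ATPases were at the top. *Chd3* stood at 96.1 ± 4.22 CPM per kb (mean ± SD, n = 28), followed by *Chd5* at 25.6 ± 1.75 and *Chd4* at 20.4 ± 1.16. *Chd8* at 6.71 ± 0.41, *Chd6* at 5.25 ± 0.41 and *Chd9* at 4.61 ± 0.27 CPM per kb made up the middle. *Chd2* at 3.34 ± 0.29 and *Chd1* at 3.02 ± 0.20 CPM per kb came next, and *Chd7* was lowest at 0.79 ± 0.11. *Chd3* alone made up 57.9% of the summed level of the family per kb, and *Chd7* made up 0.477%. Of the 8 steps between neighbors in this order, 6 held in 28 of 28 mice. *Chd6* lay above *Chd9* in 26 of 28 mice and *Chd2* above *Chd1* in 26 of 28, so those neighbors overlapped over the mice. Dividing by the longest protein-coding transcript in place of merged exons left the order as it was, but *Chd5* was then above *Chd4* in 24 mice and *Chd6* above *Chd9* in 20. The levels themselves depend on that length, and *Chd8* was then at 13.0, *Chd6* at 9.53, *Chd9* at 8.88 and *Chd2* at 5.26 per kb. Among protein-coding genes tested, *Chd3* stood at the 97.9th percentile of level per kb in Water mice and *Chd7* at the 15.4th.

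**Figure D1:**
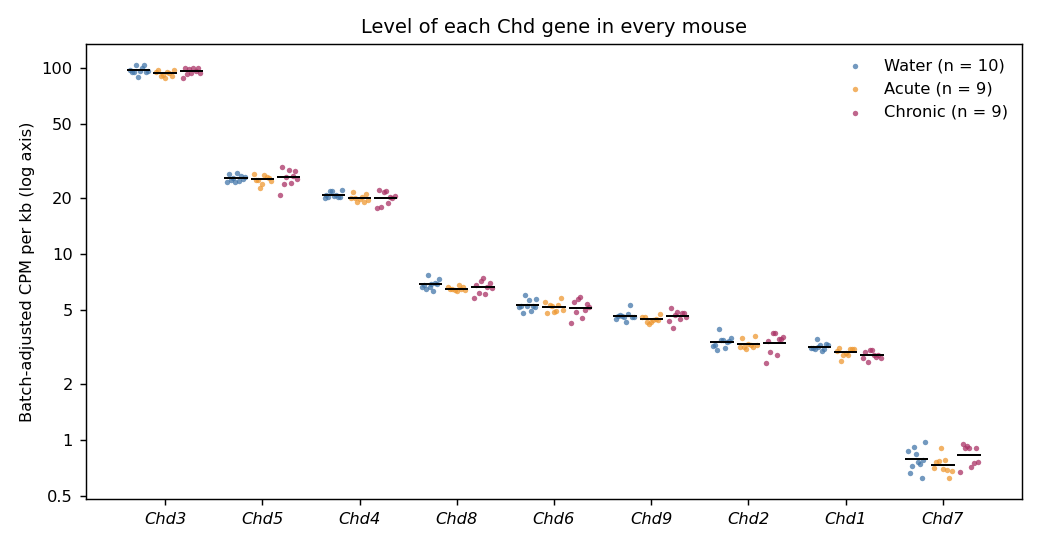
Level of the 9 Chd genes in every mouse, as batch-adjusted CPM per kb of merged exon on a log axis, with genes ordered by their mean. Each dot is a mouse and each bar the mean of a group (10 Water, 9 Acute, 9 Chronic). The levels run from 0.79 for Chd7 to 96.1 for Chd3, and the 3 groups overlap for every gene.

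Levels of 8 members varied less between water-drinking mice than the median gene tested, which was not matched to them in counts. The coefficient of variation over the 10 Water mice lay between 3.44% for *Chd4* and 7.49% for *Chd2* in 8 members, against a median of 9.27% over all genes tested. *Chd7*, which had 161 to 299 counts per mouse, varied by 14.0%.

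*Chd1* (ENSMUSG00000023852) lies on the plus strand of chromosome 17 at 15704967 to 15772610 (GRCm38, GENCODE release M21). Its product binds methylated lysine 4 of histone H3 and travels with elongating RNA polymerase II. No other annotated gene overlaps it, so its counts are not shared with a neighbor. In Water mice *Chd1* ran from 26.3 CPM through a median of 27.5 to 30.8 CPM. In Acute mice it ran from 23.4 through 26.4 to 27.2 CPM, and in Chronic mice from 23.1 through 25.0 to 26.7 CPM. The 9 Acute and the 9 Chronic mice all lay below the Water mean, while the highest of them still overlapped the lower Water mice.

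The mean of *Chd1* was 27.9 ± 1.28 CPM in Water (SD, n = 10), 26.0 ± 1.31 in Acute and 25.1 ± 1.22 in Chronic mice (n = 9 each). Against Water, the log2 fold change was -0.10 (SE 0.035) in Acute mice, a difference of -6.71% with a 95% interval from -11.3% to -1.93%, and its edgeR p of 0.00817 became 0.430 after adjustment. In Chronic mice it was -0.15 (SE 0.035), a difference of -10.1% with an interval from -14.5% to -5.45%. Its edgeR p of 0.000164 ranked 17th of the 16266 genes and became 0.157 after adjustment. DESeq2 gave the Chronic difference an adjusted p of 0.0485 with batch as a covariate and 0.0330 after ComBat-seq. Over all genes these routes called 36 and 88, against 3 with edgeR. No other alternative called a member. An exact permutation test of the labels within batches (2-sided, 32340 regroupings, 1 of 27 such tests on the members, not adjusted) gave p = 0.00238 for Acute and p = 0.000216 for Chronic against Water. The smallest value this design allows is 3.09e-05. Of the 27 p-values of this test, only those under 0.05 are printed here and below.

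The batches did not carry the *Chd1* difference in equal measure. In the first batch alone the Chronic log2 fold change was -0.06 (edgeR p = 0.283, 3 Chronic against 4 Water mice), and in the second it was -0.21 (edgeR p = 0.000418, 6 against 6). The 3 Chronic mice of the first batch stood at 25.0, 26.6 and 26.7 CPM, so that 2 lay within the range of that batch's Water mice (26.3 to 28.2 CPM) and 1 below it. The 6 Chronic mice of the second batch ran from 23.1 to 26.0 CPM, all below the lowest of its 6 Water mice (26.9 CPM). For Acute mice the log2 fold changes of the first and second batch were -0.08 and -0.11. Whether the batches differed in these effects was not tested. Chronic and Acute mice were not distinguished for *Chd1*: the log2 fold change between them was -0.05 (SE 0.036), with an interval from -8.45% to 1.51% and an edgeR adjusted p of 0.998.

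**Figure D2:**
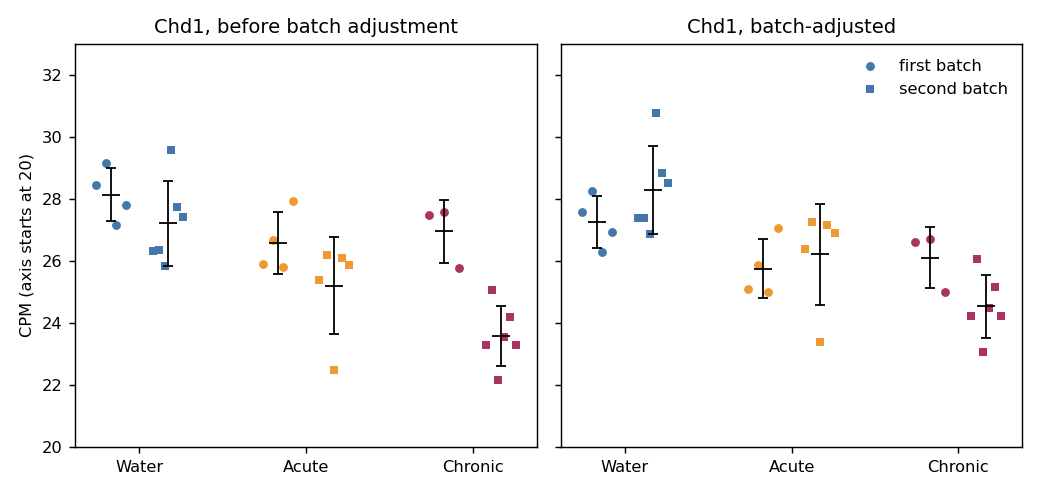
Chd1 in every mouse, in CPM before (left) and after (right) adjustment for the batch, with circles for the first and squares for the second batch, and the mean and SD of each group and batch as bars. The vertical axis starts at 20. The 6 Chronic mice of the second batch lie between 23.1 and 26.0 batch-adjusted CPM, below its 6 Water mice.

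Marker lists of other cell types were read beside these values. The mean log2 level of 10 neuron markers was 0.03 higher in Acute and 0.02 higher in Chronic than in Water mice, and for 10 astrocyte markers the differences were 0.02 and 0.02. Of these astrocyte markers 4 had an unadjusted edgeR p under 0.05 in Acute against Water, all higher, and 3 in Chronic against Water, 2 higher and 1 lower, beside 9.52% and 10.5% of all genes, and no other list had more than 2. For 10 microglia markers they were 0.01 and -0.01, for 10 markers of oligodendrocyte precursors -0.01 and -0.02, for 10 endothelial markers 0.01 and 0.00, and for the 9 of 10 oligodendrocyte markers tested 0.10 and 0.05. The summed oligodendrocyte markers ran from 1403 to 2351 CPM in Water, 1692 to 2823 in the Acute and 1596 to 2320 in the Chronic group. The 10 amygdala markers were 0.18 higher in Acute and 0.03 higher in Chronic mice on this scale. Choroid plexus markers summed to anything from 44.7 to 8678 CPM between mice, with high and low mice in every group, and their mean log2 level was -0.24 from Water in Acute and -0.32 in Chronic mice, beside an SD of 1.63 between Water mice. The part of these in the *Chd* values was not tested.

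*Chd2* (ENSMUSG00000078671, chromosome 7, 73426638 to 73541830, minus strand), a relative of *Chd1* that is known as a gene of epileptic encephalopathy, showed no such difference. It ran from 43.7 through a median of 48.6 to 56.7 CPM in Water mice, from 44.4 through 46.4 to 52.2 in Acute mice and from 37.4 through 49.99 to 54.3 in Chronic mice. The Chronic mice thus held both some of the lowest and some of the highest values. The log2 fold change was -0.05 (SE 0.059, edgeR adjusted p = 0.828) in Acute and -0.02 (SE 0.059, edgeR adjusted p = 0.925) in Chronic mice. The interval of the Chronic difference ran from -9.47% to 6.98%. *Chd2* shares its span with 4 annotated genes on its own strand, among them *1810026B05Rik*, and 1 on the other strand, so part of its counts may belong to them.

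Partners of *Chd1* in elongation were described as a list of 11 genes, of the FACT complex, the PAF1 complex and the SPT4, SPT5 and SPT6 factors. The median log2 fold change of the list was 0.00 in Acute and -0.01 in Chronic against Water, and edgeR called none. *Cdc73*, a PAF1 complex subunit, was at 49.7 ± 4.11 CPM in Water and 45.9 ± 1.94 in Acute mice, with a log2 fold change of -0.12 (SE 0.043, edgeR adjusted p = 0.447). *Leo1*, of the same complex, had a log2 fold change of 0.07 in Acute mice (edgeR adjusted p = 0.538). In Chronic mice *Ssrp1*, a FACT subunit, was at -0.05 (edgeR adjusted p = 0.562) and *Cdc73* at -0.07 (edgeR adjusted p = 0.573).

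The balance of the 3 NuRD ATPases was nearly the same in each group. *Chd3* made up 67.7 ± 1.12% of their summed level per kb in Water, 67.4 ± 0.92% in the Acute and 67.7 ± 1.60% in the Chronic group. *Chd5* followed with 17.8 ± 0.69%, 18.1 ± 0.73% and 18.2 ± 1.1%, and *Chd4* with 14.5 ± 0.70%, 14.4 ± 0.55% and 14.1 ± 0.70%. The group means of these shares differed by less than the SD between mice of a group.

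*Chd3* (ENSMUSG00000018474, chromosome 11, 69343273 to 69369406, minus strand), the most abundant member, ran from 758 through a median of 817 to 884 CPM in Water mice. It ran from 751 through 795 to 833 CPM in Acute and from 746 through 818 to 851 CPM in Chronic mice. Of the Acute mice 7 of 9 lay below the Water mean, within a wide overlap, and the log2 fold change was -0.06 (SE 0.030, edgeR adjusted p = 0.557). In Chronic mice it was -0.02 (SE 0.030, edgeR adjusted p = 0.865), with an interval from -5.50% to 2.97%. These intervals are the narrowest of the family. The small RNA gene *Gm22442* lies within *Chd3* on its strand.

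*Chd4* (ENSMUSG00000063870, chromosome 6, 125095981 to 125130591, plus strand) is the NuRD ATPase of most dividing and many mature cells, and also forms the ChAHP complex with ADNP and HP1 proteins. It ran from 161 through a median of 166 to 177 CPM in Water mice and from 153 through 160 to 173 CPM in Acute mice. In Chronic mice it ran from 142 through 163 to 177 CPM, so that the upper ends were alike and the low end was set by a few mice. The log2 fold changes were -0.06 (SE 0.038, edgeR adjusted p = 0.646) in Acute and -0.05 (SE 0.038, edgeR adjusted p = 0.647) in Chronic mice. For the Acute difference the unadjusted edgeR p was 0.148, and the exact permutation test, not adjusted, gave p = 0.0425. *Gm23751* and *Mir7045* lie within *Chd4* on its strand.

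*Chd5* (ENSMUSG00000005045, chromosome 4, 152338651 to 152390194, plus strand), the NuRD ATPase that is largely restricted to neurons and testis, ran from 235 through a median of 246 to 262 CPM in Water mice. It ran from 219 through 242 to 258 CPM in Acute mice and from 201 through 251 to 284 CPM in Chronic mice, where the lowest and the highest mouse both lay outside the range of the Water mice. The log2 fold changes were -0.02 (SE 0.046, edgeR adjusted p = 0.905) and 0.01 (SE 0.046, edgeR adjusted p = 0.952), and the Chronic interval ran from -5.54% to 7.62%.

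The other NuRD subunits gave no direction. Of 12 genes, 5 had a log2 fold change below 0 in Acute and 5 in Chronic mice, with medians of 0.01 and 0.02, and edgeR called none. Those named are the 2 with the smallest p in each comparison with Water, so counts of their mice add no support. *Hdac2*, a histone deacetylase that the study also named a hub gene from these mice, was at 79.0 ± 3.52 CPM in Water and 73.6 ± 2.39 CPM in Chronic mice. The 9 Chronic mice all lay below the Water mean of *Hdac2*, with a log2 fold change of -0.10 (SE 0.029, edgeR adjusted p = 0.222), against -0.00040 in Acute mice (edgeR adjusted p = 0.998). *Mbd3*, the subunit that defines a class of NuRD complexes, was at 68.1 ± 3.44 CPM in Water, 71.8 ± 2.06 in the Acute and 73.7 ± 4.97 in the Chronic group, with log2 fold changes of 0.08 (edgeR adjusted p = 0.502) and 0.11 (edgeR adjusted p = 0.241). The histone chaperone *Rbbp4* was at 85.4 ± 3.78 CPM in Water and 90.4 ± 3.52 in Acute mice, a log2 fold change of 0.08 (SE 0.031, edgeR adjusted p = 0.462), and in Chronic mice its log2 fold change was -0.01 (edgeR adjusted p = 0.957).

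Of the 4 ChAHP partners of *Chd4*, *Adnp* had a log2 fold change of -0.08 in Acute mice (SE 0.067, edgeR adjusted p = 0.704) and *Cbx3* one of 0.04 (edgeR adjusted p = 0.725). The partners named here were picked by their p in these same mice, by the rule used for the NuRD subunits. In Chronic mice *Cbx5*, which encodes HP1 alpha, was at 191 ± 7.77 CPM against 201 ± 7.94 in Water, with 9 of 9 mice below the Water mean and a log2 fold change of -0.07 (SE 0.028, edgeR adjusted p = 0.368), while *Cbx3* was at 0.01 (edgeR adjusted p = 0.944).

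*Chd6* and *Chd8* had the closest profiles of any pair of members over the mice (Pearson r = 0.85 over 28 mice), which is why their start regions are shown. Of the members, 5 had a window of 300 bases around a RefSeq start (GRCm38.p6), from 250 bases before to 50 after it, and both of these genes had exactly 1. Capitals mark GC boxes, the letters GGGCGG on either strand (CCGCCC as read here), the core of the site that SP1-like factors bind.
Chd6, chr2:161109037-161109336, minus strand: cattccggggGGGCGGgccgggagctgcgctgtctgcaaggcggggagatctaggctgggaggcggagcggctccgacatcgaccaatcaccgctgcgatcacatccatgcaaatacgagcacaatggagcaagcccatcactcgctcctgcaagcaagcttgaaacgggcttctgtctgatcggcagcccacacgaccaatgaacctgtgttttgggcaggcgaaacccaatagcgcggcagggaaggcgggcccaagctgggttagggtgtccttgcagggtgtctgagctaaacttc
Chd8, chr14:52257711-52258010, minus strand: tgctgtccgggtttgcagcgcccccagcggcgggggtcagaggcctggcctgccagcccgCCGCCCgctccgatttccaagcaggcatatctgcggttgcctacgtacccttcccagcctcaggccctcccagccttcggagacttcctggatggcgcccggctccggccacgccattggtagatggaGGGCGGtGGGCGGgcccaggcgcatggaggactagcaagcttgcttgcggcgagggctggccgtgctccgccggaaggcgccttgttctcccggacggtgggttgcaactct
The *Chd6* window held 1 GC box and 20 CpG pairs, and the *Chd8* window 3 GC boxes and 26 CpG pairs. A GC box was present in 7 of the 8 windows of the 5 members (*Chd4*, *Chd5*, *Chd6*, *Chd8*, *Chd9*), all but 1 of the 2 of *Chd9*, and in 35.7% of all 32851 RefSeq windows, whose median was 7 CpG pairs. The windows of *Chd4* overlap each other, as do those of *Chd5*, so the 8 are not separate observations. These are letters in a sequence, and no binding was measured.

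*Chd6* (ENSMUSG00000057133, chromosome 2, 160946978 to 161109075, minus strand), a remodeler linked to the response to oxidative DNA damage, ran from 92.4 through a median of 100.6 to 115 CPM in Water mice. It ran from 92.8 through 100.3 to 111 CPM in Acute and from 81.6 through 99.9 to 112 CPM in Chronic mice. The medians lay within 1 CPM of each other, and the log2 fold changes were -0.03 (SE 0.052, edgeR adjusted p = 0.876) and -0.05 (SE 0.052, edgeR adjusted p = 0.784).

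*Chd7* (ENSMUSG00000041235, chromosome 4, 8690406 to 8867659, plus strand), the gene of CHARGE syndrome and in the brain a regulator of neural progenitors and of the oligodendrocyte lineage, was the rarest member. It ran from 8.66 through a median of 10.7 to 13.5 CPM in Water, from 8.63 through 9.83 to 12.5 CPM in Acute and from 9.28 through 12.5 to 13.3 CPM in Chronic mice. Of the Chronic mice 7 of 9 lay above the Acute mean, and the ranges overlapped over most of their length. The log2 fold change between Chronic and Acute mice was 0.18 (SE 0.087), a difference of 13.5% with an interval from 0.314% to 28.3%, and its edgeR p of 0.0448 became 0.998 after adjustment. The first batch alone gave 0.15 and the second 0.22, and the exact permutation test, not adjusted, gave p = 0.0417. Against Water the log2 fold changes were -0.10 (SE 0.085, edgeR adjusted p = 0.723) in Acute and 0.08 (SE 0.084, edgeR adjusted p = 0.769) in Chronic mice, and in the first batch the Acute value was 0.05.

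*Chd8* (ENSMUSG00000053754, chromosome 14, 52198151 to 52257780, minus strand), known for its mutations in autism and as a repressor of beta-catenin targets, ran from 105 through a median of 114 to 127 CPM in Water mice. The 9 Acute mice were close together, from 105 through 107 to 113 CPM, and all lay below the Water mean of 114 CPM. The log2 fold change was -0.08 (SE 0.039), with an interval from -10.3% to 0.0648%, an edgeR p of 0.0526 and an adjusted p of 0.529. The exact permutation test, not adjusted, gave p = 0.0200. Chronic mice ran from 96.7 through 110 to 123 CPM, below the range of the Water mice at 1 end and within it at the other, with a log2 fold change of -0.05 (SE 0.039, edgeR adjusted p = 0.647).

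*Chd9* (ENSMUSG00000056608, chromosome 8, 90828352 to 91054516, plus strand), described as a coactivator of nuclear receptors, ran from 99.98 through a median of 107 to 123 CPM in Water mice. It ran from 98.3 through 102 to 111 CPM in Acute and from 92.5 through 109 to 119 CPM in Chronic mice. The log2 fold change was -0.07 (SE 0.038, edgeR adjusted p = 0.595) in Acute mice, 8 of 9 of which lay below the Water mean, and -0.01 (SE 0.038, edgeR adjusted p = 0.974) in Chronic mice. *Chd9* overlaps 2 annotated genes on each strand.

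The 5 partners of *Chd8*, 4 core subunits of the histone H3 lysine 4 methyltransferases and *Ctcf*, held no gene called by edgeR. *Dpy30* had a log2 fold change of 0.13 in Acute mice (SE 0.059, edgeR adjusted p = 0.501) and 0.07 in Chronic mice (edgeR adjusted p = 0.691). *Ctcf* was at -0.05 in Acute mice (edgeR adjusted p = 0.567), and *Ash2l* at -0.06 in Chronic mice (edgeR adjusted p = 0.451).

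**Figure D3:**
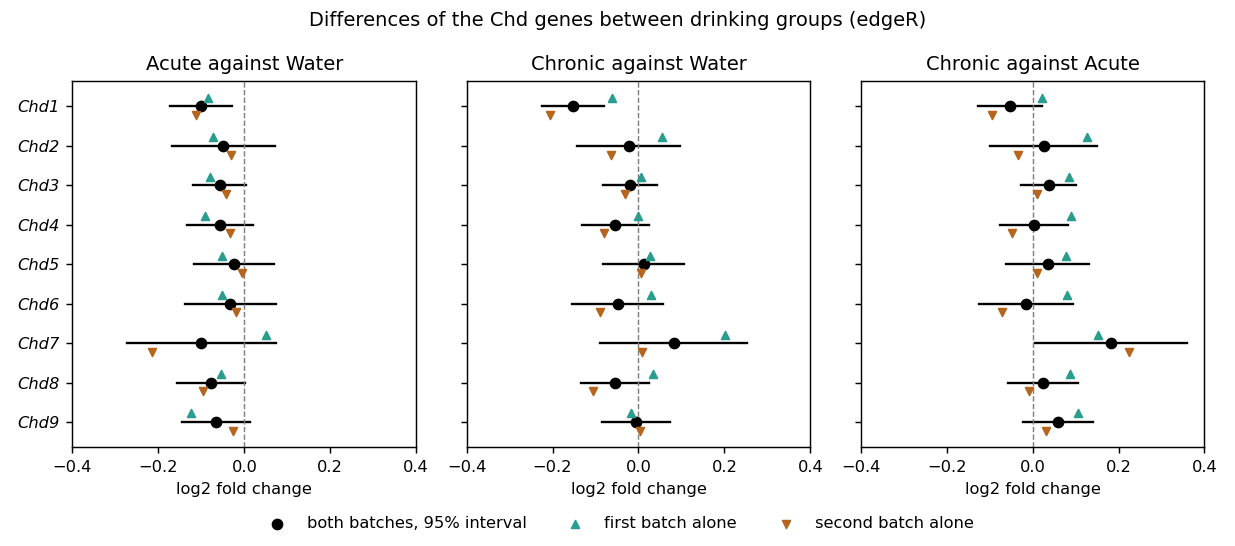
Log2 fold changes of the 9 Chd genes in the 3 comparisons. Black dots and lines are the edgeR estimate over both batches and its 95% interval, and triangles are the fits of each batch alone (11 mice in the first, 17 in the second). In Acute against Water the black dots all lie left of 0, from -0.10 to -0.02, and only the interval of Chd1 leaves out 0. In Chronic against Water only that of Chd1 does, and in Chronic against Acute only that of Chd7.

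The direction of the small differences was shared in Acute mice. The log2 fold change was below 0 in 9 of 9 members, from -0.10 to -0.02 with a median of -0.06, beside 49.4% of all genes and a median of 0.00 over them. The first batch alone had 8 of 9 below 0 and a median of -0.07, and the second 9 of 9 and -0.03. In Chronic mice the log2 fold change was below 0 in 7 of 9, with a median of -0.02, beside 49% of all genes. The batches went opposite ways there, with 3 of 9 below 0 and a median of 0.03 in the first alone and 6 of 9 and a median of -0.06 in the second. Leaving out 1 mouse moved the Chronic median between -0.05 (without Chronic mouse 37 or 38) and -0.01 (without Chronic mouse 1 or Water mouse 4). The members were correlated over the mice, as given below, so these 9 signs are not separate observations. Offsets that removed, within each library, the dependence on gene length and GC content left 6 of 9 below 0 in Acute and 5 of 9 in Chronic mice, with *Chd2*, *Chd6* and *Chd9* above 0 in both. The medians were then -0.02 in Acute and -0.004 in Chronic mice. The members have merged exons of 8019 to 23148 bases. Under these offsets *Chd1* was at -0.07 (SE 0.030, edgeR adjusted p = 0.627) in Acute and -0.10 (SE 0.030, edgeR adjusted p = 0.506) in Chronic mice.

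Other remodelers were read by the same count, beside 49.4% of all genes below 0 in Acute and 49% in Chronic mice. Of the 10 other SNF2 ATPases 10 were below 0 in Acute and 10 in Chronic mice, with medians of -0.09 and -0.08. Of the 11 ISWI genes 8 and 9 were below 0, with medians of -0.07 and -0.05, as were 3 of 3 INO80 family ATPases in both comparisons (medians -0.08 and -0.07). Of 26 SWI/SNF subunits 19 and 15 were below 0, with medians of -0.02 and -0.01. EdgeR called none of these genes, and the lists were not tested as lists. They were read only from the main fit, without the offsets for gene length and GC content.

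The genes named from these lists are the 2 with the smallest p in each comparison with Water, so counts of their mice add no support. *Smarca2*, an ATPase of SWI/SNF, was at 289 ± 20.1 CPM in Water, 263 ± 17.7 in the Acute and 271 ± 14.5 in the Chronic group, with log2 fold changes of -0.14 (edgeR adjusted p = 0.384) and -0.10 (edgeR adjusted p = 0.420). *Arid1a* had a log2 fold change of -0.11 in Acute mice (edgeR adjusted p = 0.462) and *Pbrm1*, which reads acetylated histones, one of -0.10 in Chronic mice (edgeR adjusted p = 0.377). *Srcap*, which exchanges histone H2A for H2A.Z, was at 149 ± 7.53 CPM in Water, 138 ± 9.28 in the Acute and 135 ± 11.2 in the Chronic group, with log2 fold changes of -0.10 (edgeR adjusted p = 0.485) and -0.15 (edgeR adjusted p = 0.241). *Ino80* was at -0.07 in both (edgeR adjusted p = 0.532 and 0.516). *Atrx*, which deposits histone H3.3 at repeats, was at -0.11 and -0.10 (edgeR adjusted p = 0.462 and 0.369).

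Among ISWI genes *Rsf1* had a log2 fold change of -0.14 in Acute mice (SE 0.044, edgeR adjusted p = 0.384), with 9 of 9 mice below the Water mean. *Baz1a*, at 2.56 ± 0.58 CPM in Water, had log2 fold changes of -0.31 in Acute (SE 0.13, edgeR adjusted p = 0.468) and -0.44 in Chronic mice (SE 0.13, edgeR adjusted p = 0.224). *Smarca1* was at -0.10 in Chronic mice (edgeR adjusted p = 0.272). Of the remaining SNF2 ATPases *Shprh* was at -0.13 in Acute mice (edgeR adjusted p = 0.429) and *Hltf* at -0.12 in Chronic mice (edgeR adjusted p = 0.391), both ubiquitin ligases of DNA damage tolerance.

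The members varied together from mouse to mouse. Over the 28 mice, with batch means removed, the 36 pairs of members had a median Pearson r of 0.47, from -0.03 for *Chd7* with *Chd9* to 0.85 for *Chd6* with *Chd8*. The median over all pairs of every eighth gene tested was 0.00, and that of the members was 0.50 within batch 1, 0.59 within batch 2 and 0.49 with group and batch means removed. For *Chd6* with *Chd8*, Spearman's rho was 0.77, and r was 0.77 without the 2 mice farthest from the median, 0.84 within batch 1 and 0.85 within batch 2. *Chd2* with *Chd8* (r = 0.84) and *Chd2* with *Chd4* (r = 0.83) came next, and *Chd7* stood apart with a median r of 0.28 to the others. The values of a pair come from the same libraries, so that anything that scales genes of like length or base composition within a library enters them.

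**Figure D4:**
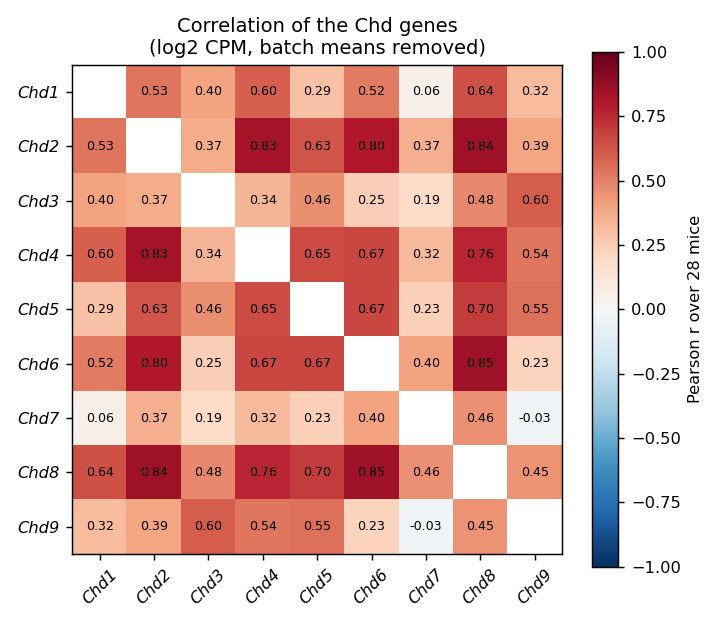
Pearson correlation of each pair of Chd genes over the 28 mice, on log2 CPM with batch means removed, from blue (negative) to red (positive). Chd2, Chd4, Chd6 and Chd8 form the reddest block (0.67 to 0.85), and the row of Chd7 is the palest, from -0.03 to 0.46.

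The gene most like each member, among all genes tested, was taken by the highest Pearson r over the same 28 mice. It was *Bptf*, the largest subunit of the NURF remodeler, for *Chd4* (r = 0.91), *Ep400*, the ATPase of the TIP60 complex, for *Chd8* (r = 0.92), and *Trp53bp1*, a factor of DNA double-strand break repair, for *Chd6* (r = 0.89). For *Chd1* it was *Cdk12*, a kinase of elongating RNA polymerase II (r = 0.80, and 0.61 with group and batch means removed), and for *Chd2* it was *Ago2*, of the RNA silencing complex (r = 0.93). For *Chd5* it was *Kif1a*, an axonal motor (r = 0.92), for *Chd3* the potassium channel *Kcnj6* (r = 0.82), for *Chd9* the protocadherin *Pcdh1* (r = 0.84), and for *Chd7* the centriolar gene *Ccp110* (r = 0.74). For the other 8 members removing group means as well moved r by at most 0.03. These were chosen as the highest of many and have no test.

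A few mice set the extremes of several members at once. Chronic mouse 1 had the lowest value of the Chronic group in 7 of 9 members and lay below the group mean in all 9, by 0.20 on the log2 scale on average. Its *Chd5* was 201 CPM, its *Chd4* 142 CPM and its *Chd6* 81.6 CPM, the lowest of all 28 mice for each. Water mouse 4 had the highest value of the Water group in 5 of 9. Over all genes tested, Chronic mouse 1 was also the mouse with the largest median distance from its group mean (0.12 on the log2 scale), and Water mouse 4 ranked 4th (0.10). In 7 of 9 Chronic mice at least 8 of 9 members lay on the same side of the group mean, as in 2 of 10 Water and 1 of 9 Acute mice. The members are correlated, as given above, and no such count was made over all genes. Without Chronic mouse 1, 5 of 9 members were below 0 in Chronic against Water with a median of -0.01, and *Chd1* was at -0.15 (edgeR adjusted p = 0.279). Without Water mouse 4, *Chd1* was at -0.14 in Chronic mice (edgeR adjusted p = 0.378).

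The spread between mice was wider in Chronic than in Water mice for 7 of 9 members, beside 48.8% of all genes tested. The SD of log2 CPM was 0.15 in Chronic and 0.06 in Water mice for *Chd5*, and 0.12 and 0.05 for *Chd4*. For *Chd2* it was 0.19 and 0.11. Without Chronic mouse 1 it was still wider in 7 of 9, beside 44.6% of all genes, with 0.11 for *Chd5* and 0.11 for *Chd4*. In Acute mice the SD was below that of Water in 6 of 9, beside 55.5% of all genes, and for *Chd8* it was 0.04 against 0.08. The members were correlated over the mice, so their spreads are not separate observations, and they were not compared by a test.

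**Figure D5:**
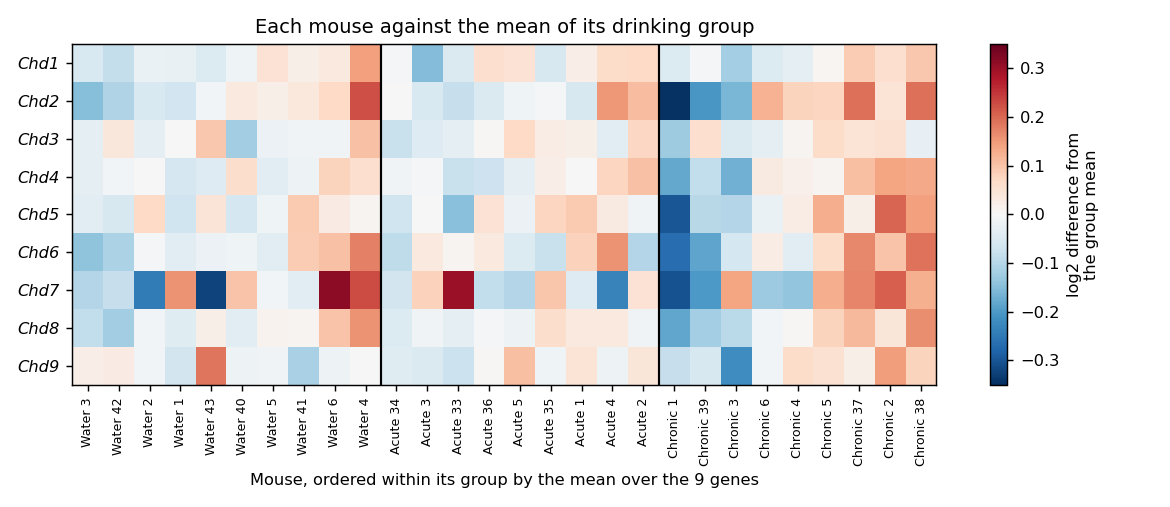
Each of the 28 mice against the mean of its drinking group, for the 9 Chd genes, as a difference of batch-adjusted log2 CPM from blue (below) to red (above), with mice ordered within their group by the mean over the genes. Chronic mouse 1 is below its group mean in 9 of 9 genes, by 0.20 on average, and 7 of 9 Chronic columns, against 2 of 10 Water and 1 of 9 Acute columns, have at least 8 of 9 genes on the same side.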

How the data were processed

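RNA from the amygdala of 28 mice was sequenced as paired-end reads. The authors quantified them with Salmon 0.14.1 against GRCm38 transcripts, summarized them by gene with tximport and GENCODE release M21, and deposited them as whole-number counts, 1 table per batch, neither normalized nor batch-adjusted. FastQC 0.11.8 is also named in the submitters' processing notes. All 28 columns were used. Whether counting used strand is not given in the sources used here.

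The tables were merged by version-free gene identifiers, and the genes kept averaged 10 counts or more. R 4.3.3 was used with edgeR 4.0.16 (quasi-likelihood test, TMM, batch as covariate, all 3 groups in 1 fit), limma 3.58.1 (removal of batch from log2 CPM, prior count 2), DESeq2 1.42.0 and sva 3.50.0, and the tests were checked on simulated data. The members and lists were chosen with earlier results of these data known. Named genes were the 9 members, the 2 genes of each list with the smallest p in each comparison with Water, and the gene most alike each member. Windows around gene starts came from RefSeq. Replicate numbers did not pair mice. Precision was limited by the spread between mice, which includes counting noise, and the part of each was not tested. Counts per mouse ran from 161 to 299 for *Chd7* and from 443 to 634 for *Chd1*. The alternatives were other scalings (RLE, upper quartile), other count filters (none, a mean of 100), DESeq2 with batch as a covariate, ComBat-seq then DESeq2, limma-voom with quality weights, each batch alone, a replicate block, GC and length offsets, both together, fits of only the groups compared, exact permutation within batches, and fits without 1 mouse each.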

Additional observations from a re-analysis of the deposited data

Results flagged for a closer look

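Of 27 combinations of member and drinking group, 1 held a mouse far from the others. Water mouse 43 had the highest *Chd9* of its group, 123 CPM against 110 CPM in the next mouse, a gap of 0.53 of the group's range, above Dixon's 95% critical value for 10 samples. Chance marks about 1 in 20 groups. The cause was not tested. Without this mouse the log2 fold change of *Chd9* in Chronic against Water mice changed sign.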

How the results depend on the processing

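No member passed the threshold under 11 of 13 refits; *Chd1* in Chronic against Water passed with DESeq2, with batch as a covariate (1 member called) and after ComBat-seq (1 member called). The log2 fold change of *Chd1* stayed below 0 in both comparisons with Water under every alternative. Leaving out each mouse in turn moved it between -0.11 and -0.08 in Acute and between -0.17 and -0.14 in Chronic mice, where its edgeR adjusted p ran from 0.0795 to 0.378 over these fits.

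Some members changed sign, none past the threshold, among them *Chd7* (-0.10) and *Chd9* (-0.07) in Acute and *Chd8* (-0.05) in Chronic against Water. With GC and length offsets, Acute against Water gave *Chd2* 0.00422, *Chd6* 0.035 and *Chd9* 0.013, Chronic against Water gave *Chd2* 0.023, *Chd5* -0.0039, *Chd6* 0.00886 and *Chd9* 0.070, and Chronic against Acute gave *Chd4* -0.011. With the replicate block and these offsets the same values were 0.011, 0.037 and 0.00380, then 0.022, -0.0051, 0.00909 and 0.071, then -0.017. The replicate block alone gave *Chd4* -0.0051 in Chronic against Acute and changed no call. The numbers are those of separate mice, and same-numbered mice of the second batch deviated together with a median r of -0.01 (from -0.35 to 0.34). In the first batch alone, *Chd7* was at 0.0497 in Acute against Water, *Chd2* at 0.0537, *Chd3* at 0.0056, *Chd6* at 0.029 and *Chd8* at 0.034 in Chronic against Water, and *Chd1* at 0.022 and *Chd6* at 0.081 in Chronic against Acute. In the second alone, *Chd9* was at 0.0040 in Chronic against Water, and *Chd2* at -0.033, *Chd4* at -0.048 and *Chd8* at -0.0082 in Chronic against Acute. With limma-voom, *Chd2* was at 0.0023 and *Chd9* at 0.00969 in Chronic against Water and *Chd6* at 0.0034 in Chronic against Acute, and the exact test's difference for *Chd4* there was -0.00034. Leaving out each mouse in turn gave, in Chronic against Water, -0.051 to 0.016 for *Chd2*, -0.013 to 0.045 for *Chd5* and -0.024 to 0.019 for *Chd9*, and, in Chronic against Acute, -0.00097 to 0.064 for *Chd2*, -0.014 to 0.024 for *Chd4* and -0.041 to 0.015 for *Chd6*. The cause was not tested.

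The *Chd7* difference between Chronic and Acute mice stayed above 0 throughout, from 0.15 to 0.22. Over all genes, Acute against Water gave 0 calls with edgeR (1549 at an unadjusted p under 0.05), 8 with DESeq2 and 30 after ComBat-seq, and Chronic against Water gave 3, 36 and 88.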
